A study of Mus musculus with 4 samples.

Results

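The enzymes that cut the extracellular matrix and the inhibitors that hold them in check were followed in the muscle wall of the mouse small intestine after loss of Dicer from smooth muscle cells. Members were all probe sets whose array annotation gives a single gene symbol naming a matrix metalloproteinase (Mmp), an ADAMTS protease (Adamts), an ADAMTS-like protein (Adamtsl) or a tissue inhibitor of metalloproteinases (Timp). This gave 76 probe sets of 43 genes, among 45101 probe sets on the array, of which 36804 carry a single symbol and stand for 20461 genes. By family, 28 probe sets belong to 19 Mmp genes, 27 to 15 Adamts genes, 8 to 5 Adamtsl genes and 13 to 4 Timp genes.

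RNA came from the jejunum of mice aged 3 weeks by the sample labels and 20 days by the methods, after mucosa and submucosa had been removed, and was hybridised to 4 Affymetrix GeneChip Mouse Genome arrays, 1 mouse per array. The 2 smDicer KO mice carried the genotype smDicer-/-;Cre-GFP/+, in which Cre and a green fluorescent protein are made under the smooth-muscle myosin heavy chain promoter and delete a floxed part of Dicer, the nuclease that cuts precursor miRNAs. Deletion was therefore directed at smooth muscle cells, including those of vessel walls, and not at the nerves, interstitial cells, fibroblasts, immune cells or endothelium of the same tissue. The 2 wild type (WT) mice are called controls in the labels. The methods use WT for smMHC Cre-GFP/+ mice, which carry the same Cre-GFP as the KO mice, and elsewhere call WT mice siblings of the transgenic mice. They name small intestine of C57BL6 mice for organ culture. The genotype of the WT mice on these arrays is not stated. The methods call the KO mice female and give no sex for the WT mice.

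Matrix metalloproteinases are zinc proteases that are made as inactive precursors and cleave collagens, proteoglycans and other proteins of the matrix and cell surface. ADAMTS proteases are secreted relatives with thrombospondin type 1 repeats that cleave proteoglycans such as versican and aggrecan, trim procollagens or act on fibrillin microfibrils, and ADAMTS-like proteins share the repeats but have no protease domain. TIMPs bind the active site of metalloproteinases and block it. In the gut wall, fibroblasts, smooth muscle, macrophages and epithelium each make some of these proteins.

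Values are log2 RMA intensities, so a difference of 1 is a 2-fold change, and differences are given as smDicer KO minus WT with the standard error (SE) of the limma fit. Where a gene has several probe sets, the brightest one by its mean of all 4 values stands for it. A mean under 6 in both groups is called near background here. A level on one probe set cannot be set against a level on another, so only the same probe set was compared between arrays.

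With 2 arrays in a group, no member passed the limma test after Benjamini-Hochberg adjustment over all 45101 probe sets, nor did any gene of the array (0% of genes). The members' adjusted p ran from 0.215 upwards, and an exact permutation test of 2 against 2 arrays cannot go under 0.333. The counts that follow therefore rest on an unadjusted limma p under 0.05 and describe these 4 arrays. At that limit 3 of 43 member genes were higher in smDicer KO (Mmp23, Mmp13 and Adamts6), beside 7.2% of all genes, and 5 were lower (Adamtsl3, Adamts9, Mmp11, Mmp17 and Adamts3), beside 10.5% of all genes. The members' shares, 6.98% and 11.6%, are near those of all genes.

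Of the 43 genes, 22 had a mean of 6 or more in the higher group, and among these 1 was higher (Mmp23), beside 10.5% of all genes at that level, and 4 were lower (Adamtsl3, Adamts9, Mmp11 and Mmp17), beside 16%. Counted by probe set, 4 of 76 were higher, beside 6.41% of all probe sets, and 7 were lower, beside 9.39%. The KO arrays lay wholly above the WT arrays for 6 member genes, beside 21.5% of all genes, and wholly below for 10, beside 30.2%. Both shares of members, 14% and 23.3%, were under those of all genes.

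The median difference was -0.04 over the 43 members and -0.04 over all genes. By family it was 0.05 for Mmp, -0.08 for Adamts, -0.47 for Adamtsl and -0.07 for Timp genes. The Adamtsl median covers 5 genes, of which 3 were above background on the brightest probe set, and all 3 of those had a negative difference there. On other probe sets Adamtsl5 differed by 1.09, and Adamtsl1 by 0.03 and, near background, by -0.52. The Adamtsl median was -0.04 without KO array 2 and -0.88 without KO array 1.

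**Figure D1:**
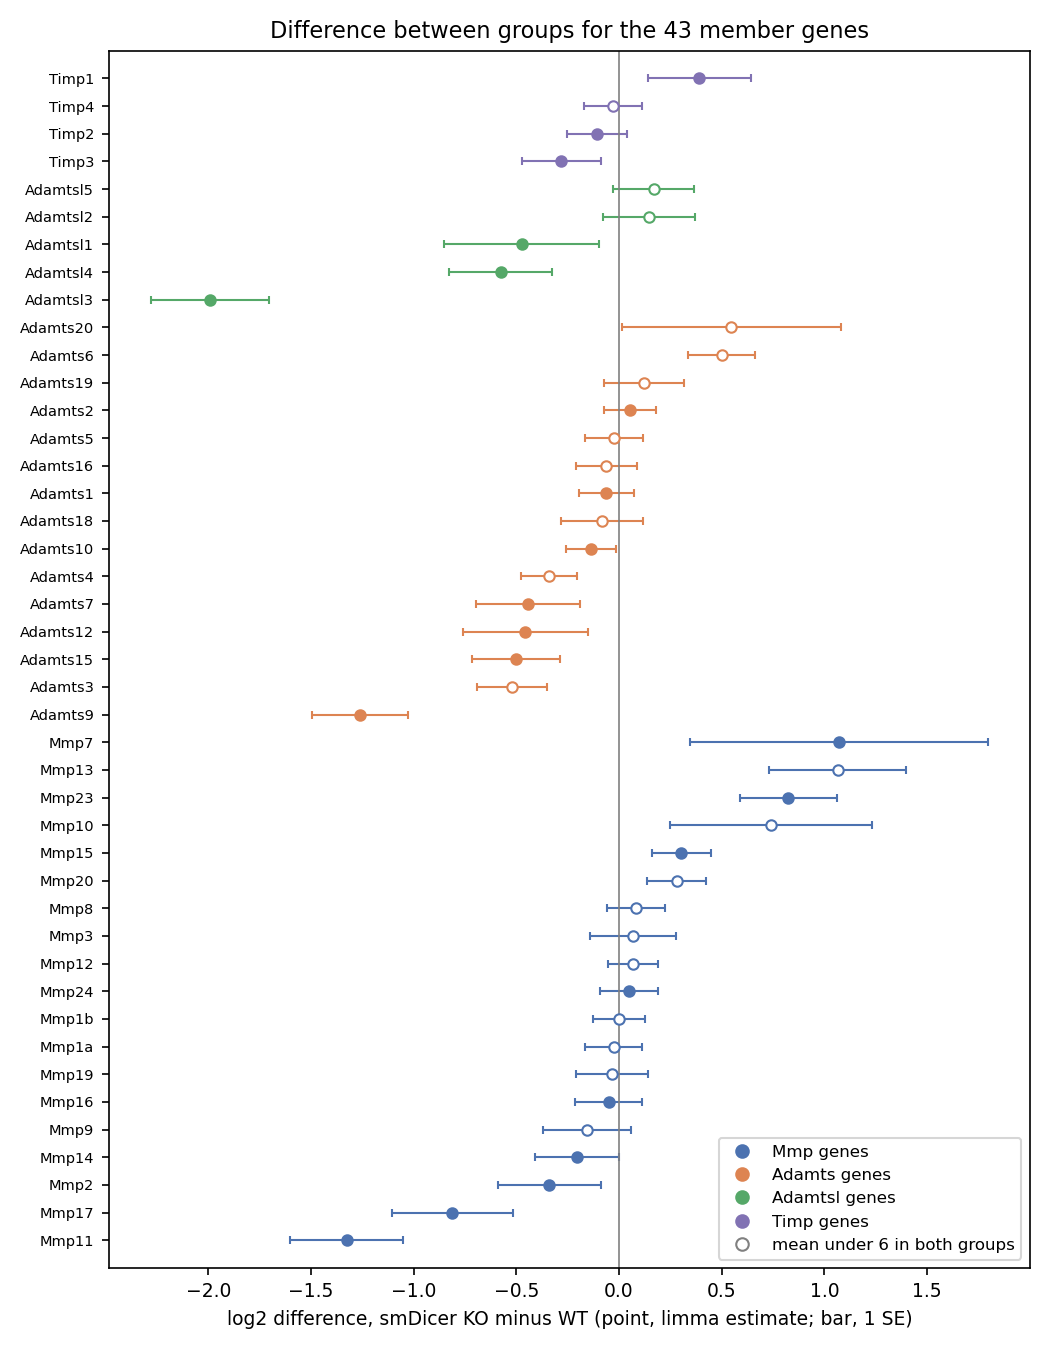
Difference between the group means (log2, smDicer KO minus WT) for the 43 member genes, with bars of 1 SE from limma, coloured by family; open points have a mean under 6 in both groups. Adamtsl3, Mmp11 and Adamts9 lie farthest to the left, at -1.99, -1.33 and -1.26, and most other members lie within 0.6 of 0.

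Dicer1 itself was lower on both KO arrays on both of its probe sets. The first read 7.82 and 8.08 in WT and 7.52 and 7.36 in smDicer KO (difference -0.51, SE 0.16, limma adjusted p = 0.271), and the second differed by -0.49 (SE 0.17, adjusted p = 0.302). Where these probe sets lie relative to the deleted part of the gene was not compared.

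The cell types of the tissue were checked by marker lists. The smooth muscle list, with Myh11, Acta2 and Des, had a median of 13.65 on both WT arrays, 13.45 on KO array 1 and 12.80 on KO array 2, and its summed level, on a log2 scale, was 16.87 and 16.88 in WT and 16.75 and 16.31 in smDicer KO. All 10 of its genes had a negative difference, with 3 of the 10 at an unadjusted p under 0.05 (Smtn, Lmod1 and Synpo2). Markers of the mucosal epithelium went the other way, with list medians of 4.61 and 7.33 on the WT arrays, 9.95 on KO array 1 and 12.36 on KO array 2, summed levels of 11.54 to 12.57 in WT and 14.48 to 16.55 in smDicer KO, and 11 of 14 measured genes higher at an unadjusted p under 0.05. By the methods the mucosa had been stripped before RNA was taken. The pancreatic acinar list had medians of 4.82 and 8.58 on the WT arrays, 4.40 on KO array 1 and 12.17 on KO array 2. Its summed levels, on a log2 scale, were 7.83 and 11.80 in WT and 7.40 and 14.74 in smDicer KO. Of its 7 measured genes, 0 had an unadjusted p under 0.05. The part of these markers in the member results was not tested beyond the values given beside them. In bulk tissue, fewer cells of a type and less RNA per cell cannot be told apart.

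Among the ADAMTS-like genes, Adamtsl3, which encodes a secreted matrix glycoprotein with thrombospondin repeats, had the farthest negative difference of all 43 members. It read 8.83 and 9.60 in WT and 7.32 and 7.12 in smDicer KO. Both KO arrays lay more than 1 log2 unit under the lower WT array. The difference was -1.99 (SE 0.29, 95% interval -2.76 to -1.22), a level 3.97-fold lower in smDicer KO, with a limma adjusted p of 0.215. With KO array 2 left out the difference was -1.89. Over the 13 alternatives run the difference ran from -2.37 to -1.61. In those that keep all 4 arrays, Adamtsl3 stayed at an unadjusted p under 0.05. The gene has 1 probe set, so alternatives that change only the probe set choice repeat its difference by construction.

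Adamtsl4, whose protein binds fibrillin microfibrils, read 8.57 and 8.32 in WT and 8.17 and 7.56 in smDicer KO. Both KO arrays were lower, but the gap was mostly on KO array 2, and the difference of -0.57 (SE 0.25, 95% interval -1.24 to 0.09) had a limma adjusted p of 0.36. Adamtsl1, punctin, gave probe sets that did not go the same way. The brightest read 7.68 and 7.99 in WT and 7.87 and 6.84 in smDicer KO (difference -0.47, SE 0.38), and the second read 7.26 and 7.02 against 7.54 and 6.80 (difference 0.03, SE 0.28). The groups overlap on both, and KO array 2 is the lowest of the 4 arrays on each. Adamtsl2 and Adamtsl5 were near background on the probe sets used, at 5.42 to 6.04, with differences of 0.14 and 0.17. A second Adamtsl5 probe set read 5.62 and 4.73 in WT and 5.79 and 6.74 in smDicer KO, with a difference of 1.09 (SE 0.45, adjusted p = 0.342).

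Adamts9, a protease that cleaves versican and aggrecan, was the only Adamts gene above background with an unadjusted p under 0.05. Its brightest probe set read 8.75 and 9.32 in WT and 7.87 and 7.68 in smDicer KO. The groups did not overlap, and the KO arrays lay closer to each other than the WT arrays did. The difference was -1.26 (SE 0.23, 95% interval -1.88 to -0.64), or 2.40-fold lower, with a limma adjusted p of 0.229. The other 2 Adamts9 probe sets were near background, at 3.52 to 4.95, and differed by -0.09 and -0.29, so the value rests on 1 probe set. With KO array 2 left out it was -1.16, and with any 1 array left out it kept an unadjusted p under 0.05.

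The other proteoglycan-cleaving members moved less. Adamts1 read 7.98 and 8.01 in WT and 8.03 and 7.84 in smDicer KO, a difference of -0.06 (SE 0.13), and its 95% interval of -0.41 to 0.29 leaves out a change of the size seen for Adamts9. Adamts15 read 6.95 and 6.86 in WT and 6.67 and 6.14 in smDicer KO (difference -0.50, SE 0.21, adjusted p = 0.351), so both KO arrays were lower, KO array 2 more so. Adamts4, an aggrecanase, was near background at 4.17 to 4.66. Adamts20 was at 3.83 to 5.41, with its highest value on KO array 1. Adamts5, the other main aggrecanase, has a single-symbol probe set at 2.13 to 2.33, far under the level called near background. Its 3 brighter probe sets carry a second symbol and so fall outside the rule, and the brightest of them read 8.15 and 7.64 in WT and 8.42 and 8.11 in smDicer KO, with overlapping groups.

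Among the procollagen N-proteinases, which trim fibrillar procollagens, Adamts2 was nearly the same on all 4 arrays. It read 8.50 and 8.50 in WT and 8.62 and 8.49 in smDicer KO, a difference of 0.05 (SE 0.12, 95% interval -0.28 to 0.39, limma adjusted p = 0.878), and a second probe set differed by 0.08. Its paralog Adamts3 was near background, at 5.21 and 4.84 in WT and 4.46 and 4.55 in smDicer KO, and its difference of -0.52 (SE 0.17, adjusted p = 0.286) had an unadjusted p under 0.05, which became 0.0548 by limma with the replicate number as a block. At such low values the size of a change is uncertain.

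Adamts7 and Adamts12, which cleave cartilage oligomeric matrix protein, differed by -0.44 and -0.46, with adjusted p of 0.456 and 0.515. Adamts12 read 7.29 and 7.47 in WT and 7.34 and 6.52 in smDicer KO, so only KO array 2 was lower. Adamts10, a protease of fibrillin microfibrils, differed by -0.14 (SE 0.12). Adamts6, its close relative, was near background at 4.54 and 4.34 in WT and 5.08 and 4.80 in smDicer KO, with a difference of 0.50 (SE 0.16, adjusted p = 0.282) at an unadjusted p under 0.05. Adamts16, Adamts18 and Adamts19 stayed between 2.27 and 5.77 on the probe sets used.

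**Figure D2:**
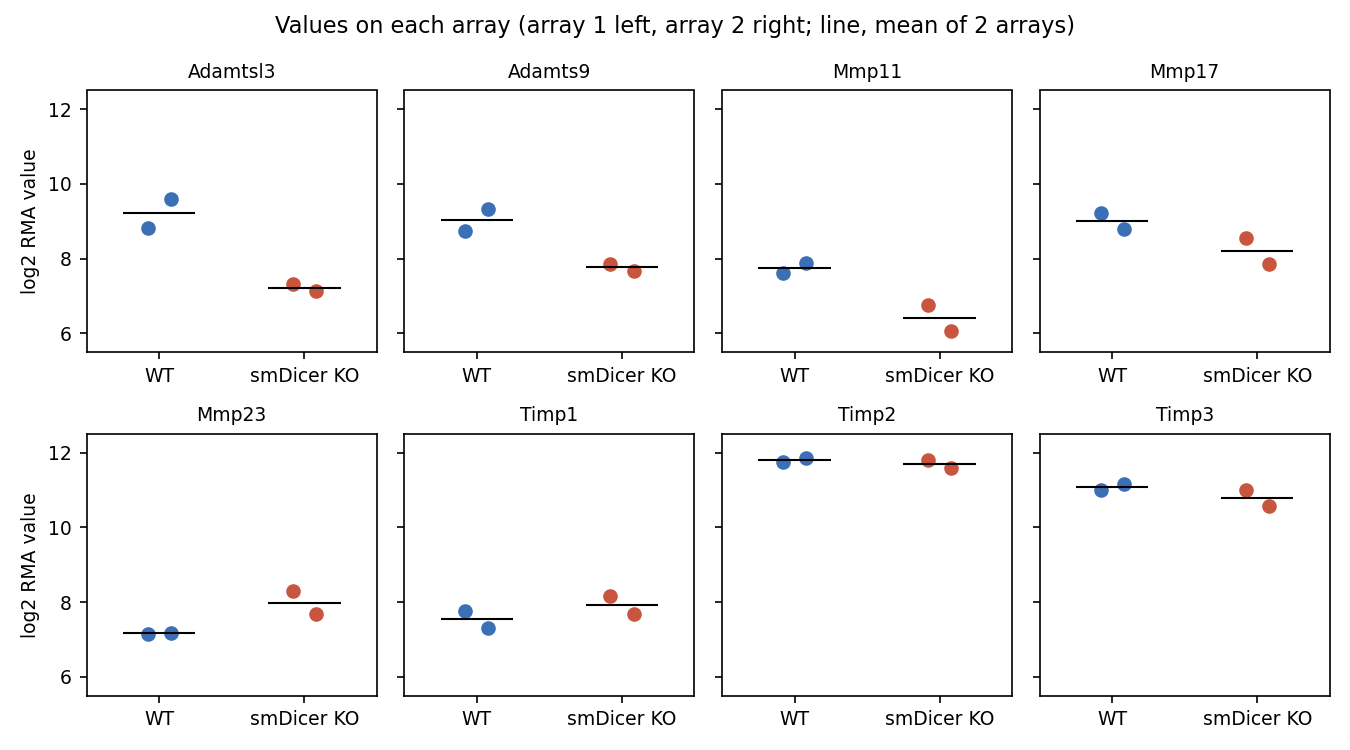
Log2 RMA values on each of the 4 arrays for 8 members; each panel shows both WT arrays, then both smDicer KO arrays, with a line at each group's mean. The KO arrays lie wholly below the WT arrays for Adamtsl3, Adamts9, Mmp11 and Mmp17, wholly above for Mmp23, and overlap with them for Timp1, Timp2 and Timp3.

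Mmp11, stromelysin-3, which is activated inside the cell by furin, read 7.61 and 7.88 in WT and 6.77 and 6.07 in smDicer KO. The groups were apart, and KO array 2 was the lower of the KO arrays. The difference was -1.33 (SE 0.28, 95% interval -2.06 to -0.59), a 2.51-fold lower level, with a limma adjusted p of 0.233. With KO array 2 left out it was -0.98 and kept an unadjusted p under 0.05, while with WT array 2 left out it was -1.20 and did not.

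Mmp17 encodes MT4-MMP, which is held at the cell surface by a lipid anchor. It read 9.21 and 8.80 in WT and 8.54 and 7.85 in smDicer KO. Both KO arrays were lower than both WT arrays, but the gap from WT array 2 to KO array 1 was small, and KO array 2 was lower than KO array 1, as was the smooth muscle list, with medians of 13.45 and 12.80. The difference was -0.81 (SE 0.29, 95% interval -1.60 to -0.03, limma adjusted p = 0.308). Leaving out KO array 2 brought it to -0.46 and ended the call at an unadjusted p under 0.05, as did leaving out either WT array (-0.61 and -1.02).

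Mmp23 was the only member above background that was higher in smDicer KO at that limit. It encodes a membrane-anchored metalloproteinase that, unlike most of the family, has neither the cysteine switch nor the hemopexin domain. Its brighter probe set read 7.14 and 7.19 in WT and 8.30 and 7.69 in smDicer KO, a difference of 0.82 (SE 0.24, 95% interval 0.20 to 1.45, limma adjusted p = 0.258). The second probe set read 6.91 and 6.99 against 8.40 and 7.71, a difference of 1.11 (SE 0.26, adjusted p = 0.237). Both probe sets place both KO arrays above both WT arrays, 1.77-fold and 2.15-fold, and both give KO array 1 as the highest. The difference on the brighter probe set was 1.13 with KO array 2 left out and 0.52 with KO array 1 left out, and both kept that call. With either WT array left out it was 0.80 and 0.85 and no longer had an unadjusted p under 0.05.

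The trio that makes active gelatinase A in mesenchymal cells was read brightly on all arrays. In that system Mmp14, the membrane protease MT1-MMP, cuts the precursor of Mmp2, with Timp2 as the bridge between them. Mmp14 read 9.74 and 9.79 in WT and 9.81 and 9.31 in smDicer KO, a difference of -0.20 (SE 0.20, 95% interval -0.75 to 0.34, limma adjusted p = 0.669). Mmp2 read 9.36 and 9.87 in WT and 9.49 and 9.06 in smDicer KO, a difference of -0.34 (SE 0.25, 95% interval -1.01 to 0.33, adjusted p = 0.558). Timp2 read 11.74 and 11.87 in WT and 11.81 and 11.58 in smDicer KO, a difference of -0.11 (SE 0.15, 95% interval -0.50 to 0.28, adjusted p = 0.765). For Mmp2 and Timp2, KO array 1 lies between the WT arrays and for Mmp14 just above them, and for all 3 genes KO array 2 is the lowest of the 4. The fibroblast list, with Pdgfra, Dcn and Col1a1, had medians of 11.87 and 11.86 in WT and 11.69 and 11.29 in smDicer KO and summed levels, on a log2 scale, of 15.64 and 15.65 in WT and 15.67 and 15.40 in smDicer KO. Both measures were lowest on KO array 2, but 6 of its 10 genes had a positive difference, with a median of 0.05, and Pi16 was under 6 on all arrays. Its part in these values was not tested.

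Of the other membrane-type enzymes, Mmp15 (MT2-MMP) read 6.82 and 7.01 in WT and 7.15 and 7.29 in smDicer KO, higher on both KO arrays by a difference of 0.30 (SE 0.14, adjusted p = 0.385), and its second probe set differed by 0.20. Mmp24 (MT5-MMP) differed by 0.05 and Mmp16 (MT3-MMP) by -0.05. A second, near-background Mmp16 probe set read 5.80 and 5.66 against 5.40 and 5.26, a difference of -0.40 (SE 0.14, adjusted p = 0.29) at an unadjusted p under 0.05. Mmp9, gelatinase B, and Mmp19 were near background, at 5.40 to 5.92 and 5.07 to 5.46.

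The 4 TIMPs gave no gene at an unadjusted p under 0.05 on its brightest probe set. Timp1, an inhibitor that is induced in injured and inflamed tissue, read 7.78 and 7.31 in WT and 8.17 and 7.70 in smDicer KO. KO array 1 was the highest and the groups overlapped, with a difference of 0.39 (SE 0.25, 95% interval -0.28 to 1.06, limma adjusted p = 0.501). Timp3, which is held in the matrix and also inhibits ADAMTS proteases, read 10.99 and 11.17 in WT and 11.01 and 10.58 in smDicer KO, a difference of -0.28 (SE 0.19, 95% interval -0.80 to 0.24, adjusted p = 0.532). Timp4 was near background at 4.68 to 4.90, with a difference of -0.03 (SE 0.14, adjusted p = 0.945).

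Timp2 and Timp3 are each read by several probe sets, and all of these had negative differences. The 6 Timp2 probe sets differed by -0.61 to -0.11 and the 4 Timp3 probe sets by -0.56 to -0.19. The dimmest Timp3 probe set read 6.52 and 6.63 in WT and 6.07 and 5.95 in smDicer KO, wholly apart, with a difference of -0.56 (SE 0.13, adjusted p = 0.236) and an unadjusted p under 0.05. Probe sets of one transcript share the same RNA on each array, so their common sign is 1 observation and not 6 or 4. The plot of every probe set for 11 members shows all probe sets of Mmp23 and Mmp15 more than 1 SE to the right of 0. Those of Mmp23 lie at 0.82 and 1.11 and those of Mmp15 at 0.30 and 0.20. Probe sets of the same gene can differ from each other, as for Adamts9, Adamtsl1, Adamtsl5 (0.17 and 1.09) and Mmp16 (-0.40 to 0.07).

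**Figure D3:**
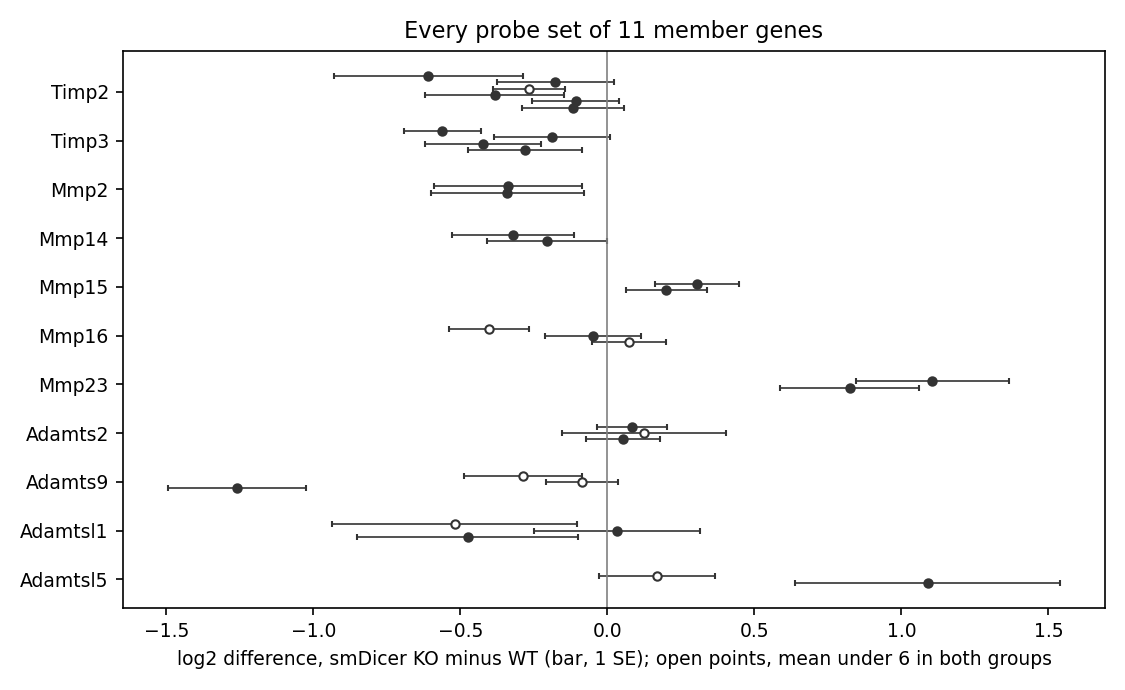
Difference (log2, smDicer KO minus WT, bars of 1 SE from limma) for every probe set of 11 member genes; open points have a mean under 6 in both groups. All 6 Timp2 and 4 Timp3 probe sets lie left of 0, both Mmp23 probe sets lie right of 0 at 0.82 and 1.11, and only the brightest Adamts9 probe set lies at -1.26.

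The 9 measured Mmp genes that sit together on chromosome 9 were all near background in WT. Along the GRCm38.p6 annotation their order is Mmp13, Mmp12, Mmp1b, Mmp3, Mmp1a, Mmp10, Mmp8, Mmp20 and Mmp7. Mmp27, between Mmp8 and Mmp20, was not read by a member probe set. This cluster holds the collagenases Mmp13 and Mmp8, the paralogs Mmp1a and Mmp1b, and the stromelysins Mmp3 and Mmp10. It also holds macrophage elastase Mmp12, the enamel protease Mmp20 and matrilysin Mmp7. No value on a WT array was over 5.37, and 2 of the 9 genes reached 6 on any array. Among the other 34 members, 22 did so.

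Mmp7, which in the mouse small intestine is made by Paneth cells and activates their defensins, read 5.23 and 5.37 in WT, 5.30 on KO array 1 and 7.44 on KO array 2. Mmp10 read 4.78 and 4.69 in WT, 4.76 on KO array 1 and 6.19 on KO array 2. For both genes 3 arrays were alike and KO array 2 stood alone. The group differences of 1.07 (SE 0.72) and 0.74 (SE 0.49) had limma adjusted p of 0.523 and 0.515, and with KO array 2 left out neither had an unadjusted p under 0.05.

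The Paneth cell list followed the same arrays, with medians of 4.69 and 4.73 in WT, 5.05 on KO array 1 and 10.80 on KO array 2. Its summed level, on a log2 scale, was 9.89 to 10.29 in WT and 10.35 to 14.25 in smDicer KO, 7 of its 8 measured genes were higher in the KO mean, and Defcr3 was under 6 on all arrays. Its part in the Mmp7 and Mmp10 values was not tested. Adamdec1, a secreted ADAM-like protease of the intestinal mucosa that is not a member, read 5.40 and 4.90 in WT, 5.79 on KO array 1 and 10.48 on KO array 2.

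**Figure D4:**
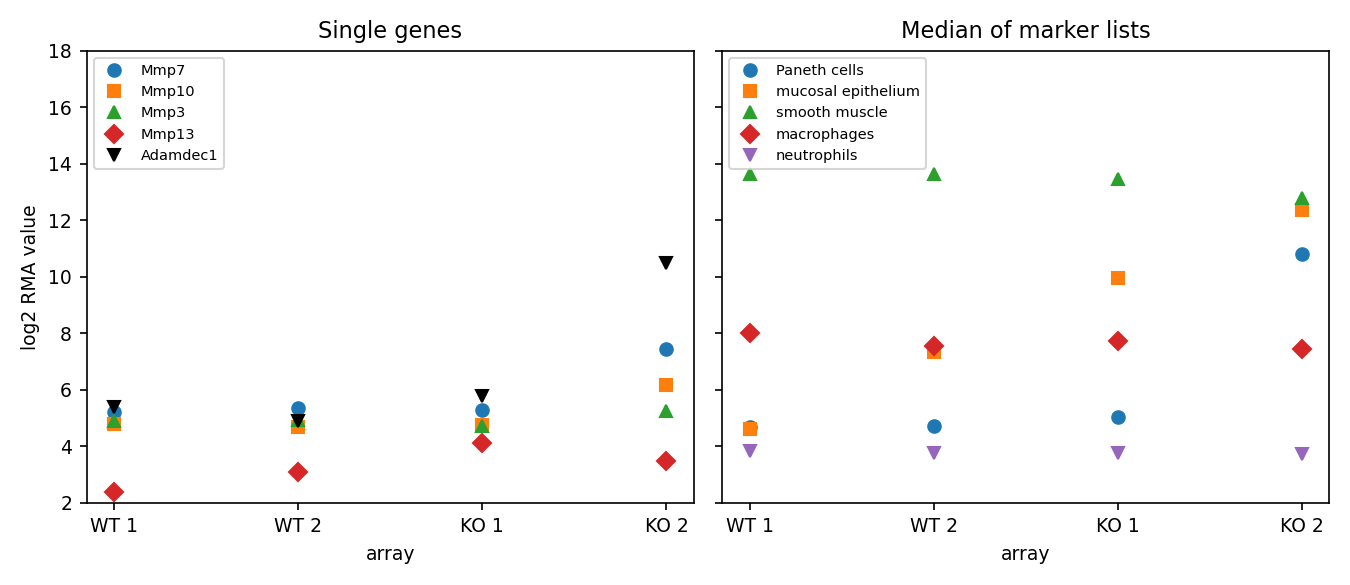
Log2 RMA values on each array for 4 chromosome 9 Mmp genes and Adamdec1 (left) and medians of 5 marker lists on the same arrays (right). Mmp7, Mmp10 and Adamdec1 are high on KO array 2, at 7.44, 6.19 and 10.48, as is the Paneth cell median at 10.80, while the epithelial median is higher on each of WT array 2, KO array 1 and KO array 2 than on WT array 1.

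Mmp13, collagenase-3, had an unadjusted p under 0.05 but at values near the floor of the array, 2.39 and 3.09 in WT and 4.12 and 3.49 in smDicer KO, with a difference of 1.07 (SE 0.33, limma adjusted p = 0.274). With the replicate number as a block its unadjusted limma p was 0.0602. Mmp8, the neutrophil collagenase, read 3.51 to 3.76, and 8 of 9 measured neutrophil markers were under 6 on all arrays. Mmp12, made by macrophages, read 2.20 to 2.31, and the macrophage list had medians of 7.43 to 8.01. Mmp20 read 2.74 to 3.17. For both of these genes the KO arrays lay just above the WT arrays, at values far under 6. Mmp3 read 4.72 to 5.24, and Mmp1a and Mmp1b read 2.13 to 2.44.

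The promoters of these genes differ from those of the other members in their letters. RefSeq windows of 300 bases, 250 before and 50 from the annotated start, were matched for 29 of the 43 genes (32 windows, GRCm38.p6). AP-1, the dimer of Fos and Jun proteins, binds a motif searched here as TGANTCA, which is its own reverse complement in form. It is in the windows of 8 of the 9 cluster genes, in 0 of the 20 other member genes, and in 7.81% of all 32851 windows of the table. The exception is Mmp8. The TATA motif TATAAA and the GGGCGG motif below were not in the planned search, and both strands were searched for them. TATAAA was chosen after the promoters were seen. It is in all 9 cluster genes, in 2 of the 20 others (Adamtsl2 and Adamts1) and in 13.6% of all windows. By window, TATAAA is in 9 of the 11 cluster windows and AP-1 in 8. In Mmp12 TATAAA begins 4 bases after the start, and in Mmp8 it is on the other strand, 3 bases before the start. The 4 stretches below show Mmp13, the cluster gene with an unadjusted p under 0.05, Mmp10 and Mmp7, the cluster genes that reached 6 on an array, and Mmp3, the other stromelysin, from 100 bases before to 20 from the start, all on the plus strand, at chr9:7272414-7272533 for Mmp13, chr9:7502242-7502361 for Mmp10, chr9:7691990-7692109 for Mmp7 and chr9:7445722-7445841 for Mmp3. Capitals mark TGANTCA and TATAAA.
Mmp13: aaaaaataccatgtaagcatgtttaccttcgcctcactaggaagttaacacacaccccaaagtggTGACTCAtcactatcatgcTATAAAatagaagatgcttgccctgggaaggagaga
Mmp10: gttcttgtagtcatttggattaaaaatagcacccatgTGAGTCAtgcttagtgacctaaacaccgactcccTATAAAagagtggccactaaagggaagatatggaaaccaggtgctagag
Mmp7: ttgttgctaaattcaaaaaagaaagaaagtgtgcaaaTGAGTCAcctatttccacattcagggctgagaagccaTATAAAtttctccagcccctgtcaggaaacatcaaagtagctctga
Mmp3: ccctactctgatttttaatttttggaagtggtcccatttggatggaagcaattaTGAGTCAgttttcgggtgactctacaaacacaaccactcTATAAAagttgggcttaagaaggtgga

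The AP-1 motif begins 35 bases before the start in Mmp13, 46 in Mmp3 and 63 in both Mmp10 and Mmp7. All 4 of these windows carry it, and on these arrays Mmp3 stayed at 4.72 to 5.24 while Mmp7 reached 7.44 on KO array 2. The match is a description of the letters and not a site shown to be bound.

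The windows of the members outside the cluster are richer in G and C. The median GC content was 67% over the 21 windows of the other members (53.3% to 80%) and 42.7% over the 11 cluster windows (37.7% to 52%). The GC box GGGCGG is in 18 of the 20 other member genes, in none of the 9 cluster genes (0 of 11 windows) and in 35.7% of all windows. This motif holds only G and C, so its count is not separate from the GC content of the windows. It overlaps neither of the motifs above. TATAAA holds only A and T, so its count is not separate from the GC content either. The part of GC content in the AP-1 count was not tested. The cluster genes are neighbours of the same family, so their matches are not separate observations. The CArG box, the motif of serum response factor that marks many smooth muscle promoters, is in 0 of the 32 member windows and in 1.63% of all windows, which says only that these letters are not in these windows. The stretches below are those of the genes with the clearest group differences, from 100 bases before to 15 from the start, at chr7:82335594-82335708 for Adamtsl3 on the plus strand, and chr6:92943520-92943634 for Adamts9, chr10:75932488-75932602 for Mmp11 and chr4:155653276-155653390 for Mmp23 on the minus strand. Mmp17 has no entry in the table. Capitals mark GGGCGG on either strand.
Adamtsl3: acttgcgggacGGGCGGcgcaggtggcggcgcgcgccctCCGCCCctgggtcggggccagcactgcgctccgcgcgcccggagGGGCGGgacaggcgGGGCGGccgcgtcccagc
Adamts9: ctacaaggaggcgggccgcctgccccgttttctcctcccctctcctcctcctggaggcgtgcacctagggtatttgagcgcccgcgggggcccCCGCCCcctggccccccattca
Mmp11: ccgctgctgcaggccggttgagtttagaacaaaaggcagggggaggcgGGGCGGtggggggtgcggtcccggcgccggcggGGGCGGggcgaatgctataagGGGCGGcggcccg
Mmp23: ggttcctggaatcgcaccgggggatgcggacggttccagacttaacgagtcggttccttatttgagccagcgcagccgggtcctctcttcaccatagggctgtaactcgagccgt

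Adamtsl3, the member with the farthest negative difference, shows 4 GC boxes in this stretch and Mmp11 shows 3. Adamts9 shows 1. The stretch of Mmp23, which is 1 of its 2 annotated starts and the gene that was higher in smDicer KO, shows none, since its matches begin 18 and 38 bases after the start. Of the 2 Mmp23 windows, 1 holds the motif. Whether the motif goes with the direction of a difference was not tested.

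**Figure D5:**
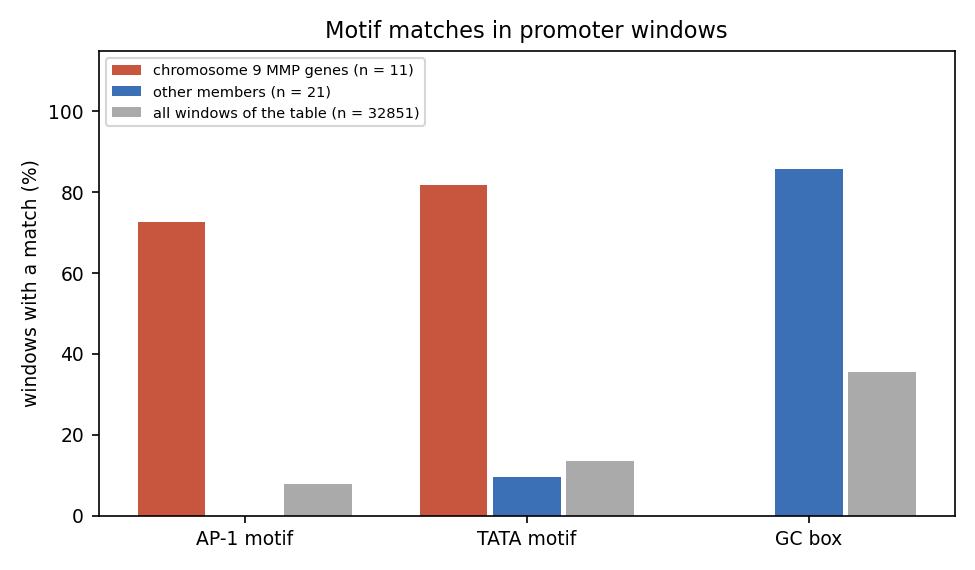
Share of 300-base promoter windows that hold each motif on either strand, for 11 windows of the chromosome 9 Mmp genes, 21 windows of the other members and all 32851 windows of the table; bars start at 0. The AP-1 motif is in 72.7%, 0% and 7.81% of them, the TATA motif in 81.8%, 9.52% and 13.6%, and the GC box in 0%, 85.7% and 35.7%.

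Around these families lie the proteases and inhibitors that act with them, counted at the same limit and read against the same 7.2% of genes higher and 10.5% lower. With 1 array left out, the share of all genes higher was itself 2.31% without WT array 1, 2.00% without WT array 2, 11.2% without KO array 1 and 9.86% without KO array 2. Of 15 measured activators and other inhibitors, 3 were higher at an unadjusted p under 0.05 and 0 were lower, with a median difference of 0.14. Plat, tissue plasminogen activator, differed by 0.49 (SE 0.16, limma adjusted p = 0.283), and Plau, urokinase, by -0.32 near background. The others of this list at that limit were Pcsk5, a furin-like convertase, at 0.63 and Spock2, a proteoglycan, at 0.52. Furin, which activates Mmp11 and the membrane-type enzymes, differed by -0.07 (SE 0.14), and Reck, a membrane inhibitor of Mmp14, by 0.11 (SE 0.15). Without KO array 2, 3 were again higher, but they were Serpine2 (0.54), Spock2 (0.65) and Spock3 (1.13). Without WT array 1 the only one was Plat (0.65), without KO array 1 the only one was Pcsk5 (0.92), and without WT array 2 there were 0.

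Of 13 measured ADAMTS substrates and partners, 3 were higher and 0 lower. Fbn2, a fibrillin of developing microfibrils, read 8.81 and 8.74 in WT and 10.09 and 10.01 in smDicer KO, a difference of 1.27 (SE 0.12, limma adjusted p = 0.215), with the arrays of each group close to each other. Fbn1 differed by -0.04 (SE 0.14). Vcan, the versican that Adamts9 cleaves, read 7.32 and 7.02 in WT and 7.04 and 6.61 in smDicer KO, with overlapping groups and a difference of -0.35 (SE 0.21, adjusted p = 0.476). The others at that limit were Ncan, a proteoglycan of nervous tissue, at 0.77 and Vwf, the substrate of Adamts13, at 0.72. The enteric neuron list had medians of 9.36 and 9.15 in WT and 10.29 and 9.71 in smDicer KO, and its part in the Ncan value was not tested. Without KO array 2 the same 3 genes were higher, and with WT array 2 left out Fbn2 (1.24) alone was.

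Of 7 measured astacin proteases and procollagen enhancers, 2 were higher and 0 lower. Both are the meprins of the intestinal brush border. Mep1a read 5.32 and 5.63 in WT and 8.85 and 9.76 in smDicer KO, and Mep1b read 3.74 and 6.47 against 9.41 and 11.81, in the same order of arrays as the epithelial list. Bmp1, the procollagen C-proteinase, differed by -0.15 (SE 0.12). Of 11 measured membrane ADAMs and Adamdec1, 1 was higher, Adam10, the shedding protease of Notch and cadherins, at 9.72 and 9.74 in WT and 10.15 and 10.12 in smDicer KO, a difference of 0.41 (SE 0.12, adjusted p = 0.258). Adam17 differed by -0.03 (SE 0.13). Without KO array 2, Mep1a (3.37), Mep1b (4.30) and Adam10 (0.42) kept an unadjusted p under 0.05, and with WT array 1 left out Mep1a (3.67) alone of the 3 did.

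Between the KO arrays, 4 member genes differed by more than 1 log2 unit (Mmp7, Mmp10, Adamts20 and Adamtsl1), and between the WT arrays 0 did. The median absolute difference over members was 0.20 between the WT arrays and 0.21 between the KO arrays, against 0.14 and 0.22 over all genes. Of the 43 members, 24 were lower on KO array 2 than on KO array 1. With KO array 2 left out, 4 members were higher (Mmp23, Mmp13, Adamts6 and Adamts20), beside 9.86% of all genes, and 3 were lower (Adamtsl3, Adamts9 and Mmp11), beside 8.22%. With KO array 1 left out, 3 were higher (Mmp7, Mmp10 and Mmp23), beside 11.2%, and 10 were lower, beside 14.2%, the 10 being Adamtsl1, Adamtsl3, Adamtsl4, Adamts9, Adamts12, Adamts15, Mmp11, Mmp14, Mmp17 and Timp3. Adamtsl3 and Adamts9 are the members with an unadjusted p under 0.05 in each of the 4 fits that leave out 1 array.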

How the data were processed

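The authors hybridised RNA of 2 WT and 2 smDicer KO jejuna to Affymetrix arrays and deposited RMA values, which are on the log2 scale, background-corrected and normalised together, with no version given in the sources used here. The table of probe set names, symbols and alignments also holds the authors' fold changes and p-values, which were not used. From the deposited log2 values, the groups were compared with lmFit and eBayes of limma 3.58.1 (R 4.3.3) over all 45101 probe sets, and p-values were adjusted by the Benjamini-Hochberg method over all of them. No detection calls were used here, and the number of arrays, 2 per group, limits the precision. The code was tested on simulated data. The 43 genes matched RefSeq (GRCm38.p6) by symbol, which also gave the promoters, and the build behind the array annotation was not used for coordinates. Genes listed for a role but with no single-symbol probe set (Mmp21, Mmp25, Mmp27, Mmp28, Adamts13, Adamts14 and Adamts17) were not analysed here, and Adamts8, read only by a probe set with a second symbol, was counted only in an alternative. Values on every array were given for members with an unadjusted p under 0.05 and a mean of at least 6, all Timp genes, the 2 brightest genes of each other family and genes whose bright probe sets disagree, and other members were named with their values after those values were seen. The members and all gene lists were chosen with earlier results of these data known. One gene of these lists is not reported here. Alternatives were another variance model, normalisation, filter, probe set choice, a replicate block and each array left out.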

Additional observations from a re-analysis of the deposited data

How the results depend on the processing

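Of 14 genes named by the stated rule, 5 had an unadjusted p under 0.05 (Adamtsl3, Adamts9, Mmp11, Mmp17 and Mmp23). These 5 have the same fit by construction when only plain _at probe sets are kept or those with several symbols are added. They kept this call in 55 of 65 comparisons with an alternative, Adamtsl3 in all 13. The other 9 gained a call 6 times, with the sign unchanged. Counts of members at that limit, 3 higher and 5 lower by gene and 4 and 7 by probe set, were within 1.5 times of these values under robust trended moderation, median centring and cyclic loess. The counts by gene were so too under other probe set choices and with probe sets of several symbols counted (the last added after seeing the data). Without moderation they were 0 and 1 (Adamtsl3) by gene and 1 and 3 by probe set. With probe sets under a log2 value of 6 filtered out, 1 gene and 2 probe sets were higher, since the low values of Mmp13 and Adamts6 are dropped. With 1 array left out the counts ran from 0 to 4 genes higher and 3 to 10 lower, and from 0 to 6 probe sets higher and 3 to 18 lower. The 0 genes higher came without WT array 1 and the 10 lower without KO array 1.

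By the labels, same-numbered arrays are linked only by the number. The correlation of their deviations over all probe sets was 0.251, and with 2 pairs it cannot show whether they were paired. The medians of the pancreatic acinar and epithelial lists were each higher on array 2 than on array 1 in both groups. With the replicate number as a block, counts were again 3 and 5 by gene, but not of the same genes. Adamtsl4 (-0.57) and Timp1 (0.39) then had an unadjusted p under 0.05, and Adamts3 (-0.52) and Mmp13 (1.07) no longer did.

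The family medians moved with the filter to -0.13 for Mmp and -0.30 for Adamts, and the Timp median was 0.0038 under cyclic loess and -0.24 over the means of all probe sets. With 1 array left out the Adamts median ran from -0.18 to -0.091 and the Adamtsl median, over 5 genes, from -0.88 without KO array 1 to -0.043 without KO array 2. The Adamtsl median was -0.16 over plain _at probe sets. The Mmp median changed sign with the filter, from 0.05. Among the 14 genes named by the stated rule, values that changed sign were within 0.1 of 0 and belong to genes without a call. Sign changes of other members were not followed here. With 1 array left out, Adamts2 ran from -0.011 to 0.12, Adamtsl1 from -0.99 to 0.038, Mmp14 from -0.45 to 0.043, Timp2 from -0.22 to 0.0079 and Timp4 from -0.14 to 0.085, and Timp2 was 0.023 under cyclic loess. The cause was not tested.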

Other observations

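The cathepsins, proteases that work mainly in lysosomes, were read beside these families. Of 14 measured, 3 were higher in smDicer KO at an unadjusted limma p under 0.05, beside 7.2% of all genes, and 1 was lower, beside 10.5%. Ctss, cathepsin S, a protease of antigen-presenting cells that can also cut elastin, read 8.01 and 8.23 in WT and 10.28 and 10.98 in smDicer KO, with a difference of 2.51 (SE 0.27, limma adjusted p = 0.215) that was larger than the farthest of any matrix metalloproteinase, ADAMTS or TIMP gene. Ctsc, which activates granule proteases, differed by 0.97 (SE 0.26) and Ctsb by 0.49 (SE 0.13). Ctsk, a collagen-cutting cathepsin best known from bone, went the other way, from 7.73 and 7.95 in WT to 7.37 and 7.30 in smDicer KO (difference -0.50, SE 0.14, adjusted p = 0.255).

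The macrophage list had medians of 8.01 and 7.53 in WT and 7.72 and 7.43 in smDicer KO, while its summed levels, on a log2 scale, were 11.23 and 11.33 in WT and 11.79 and 11.52 in smDicer KO. Of its 11 measured genes 9 had a positive difference, with a median of 0.39, 3 were higher and 1 lower at the same limit, and Itgam was under 6 on all arrays. The Ctss values rose in the same order of arrays as the epithelial list, whose medians were 4.61 and 7.33 in WT and 9.95 and 12.36 in smDicer KO. The part of either list in the Ctss value was not tested. With KO array 2 left out, Ctss differed by 2.16 and 3 cathepsins were higher, beside 9.86% of all genes, and 0 lower. With WT array 1 left out, 1 was higher, beside 2.31% of all genes, and with KO array 1 left out 5 were, beside 11.2%. Ctsa read 8.79 and 9.06 in WT, 9.19 on KO array 1 and 10.03 on KO array 2, and Ctsz read 9.74, 9.80, 9.81 and 10.78 on the same arrays. Both were highest on KO array 2, as were Ctss, Ctsc and the epithelial markers. The part of those markers in the cathepsin values was not tested.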
